A study of Mus musculus with 8 samples.

Results

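The genes described here are targets of the nuclear receptor PPARA together with the enzymes of mitochondrial and peroxisomal fatty acid oxidation. They were taken as a list of 37 gene names with the cytochrome P450 genes left out, and every probe annotated to them was used. Of these, 35 genes had a named probe, with 59 probes in all, out of 16559 genes and 25608 probes on the array. Acsl1 and Hadha were not analysed here. For the 15 members with more than 1 probe, the brightest probe gave the values below, and other probes are named for some members only. Slc25a20, Acadl and Crat each had 1 further probe that no array detected.

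The samples were livers of mice aged 2 months and mouse embryonic fibroblasts (MEFs), connective tissue cells grown out of embryos at day 13.5, carrying a plasmid for SV40 large T antigen that lets them divide on, and taken at passage 9. Each type came in 4 genotypes: Dnmt2-/-, Nsun2-/-, double knockout for both genes, and wild type. Dnmt2 (gene symbol Trdmt1) and Nsun2 encode enzymes that methylate cytosines in transfer RNAs. Every sample carried the same strain label, CBA/C57BL6j x B6;129, and each of the 8 groups had 1 Illumina MouseRef-8 v2 array, so a genotype stood for a single liver sample or a single cell line. Sex, feeding state and time of day of the mice are not given in the sources used here. Differences in mixed background cannot be told apart from genotype.

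PPARA is switched on by fatty acids and binds DNA as a partner of RXR, at repeats of the letters AGGTCA separated by a single base. In the fasted liver it raises genes that take up fatty acids, bring them into mitochondria as carnitine esters, and shorten them by beta-oxidation, with peroxisomes handling the longest chains. The products are burned or turned into ketone bodies, and the liver secretes the hormone FGF21.

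The RefSeq promoter table (build GRCm38.p6) held 35 promoters of 32 of the listed genes, and the 250 bases before each start were searched on both strands. The strict repeat AGGTCANAGGTCA was in 0 of the 35, against 0.0335% of all 32851 promoters. The looser form AGGNCANAGGNCA was in 1, that of Fabp1, or 2.86% against 0.338% of all. The AGGTCA half-site, which every strict repeat contains, was in 7 of 35, or 20% against 14% of all, namely Acadm, Acadvl, Acot4, Cd36, Cpt1a, Fabp1 and Plin2. Such a match describes letters only. The windows below belong to members that the liver results turn on: Fgf21 (chr7:45615491-45615740, minus strand) and Acot4 (chr12:84038129-84038378, plus strand) were highest in livers labelled as single knockouts, Plin2 (chr4:86670060-86670309, minus strand) and G0s2 (chr1:193273189-193273438, minus strand) were lowest in the double knockout liver, and Acadm (chr3:153944644-153944893, minus strand) was level over all livers. Capitals mark the half-site, written TGACCT where it lies on the other strand.
Fgf21: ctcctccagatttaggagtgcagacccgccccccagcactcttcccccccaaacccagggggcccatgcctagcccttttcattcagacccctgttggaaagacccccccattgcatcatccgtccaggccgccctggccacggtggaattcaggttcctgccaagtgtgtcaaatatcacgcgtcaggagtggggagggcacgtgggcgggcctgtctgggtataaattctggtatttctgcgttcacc
Acot4: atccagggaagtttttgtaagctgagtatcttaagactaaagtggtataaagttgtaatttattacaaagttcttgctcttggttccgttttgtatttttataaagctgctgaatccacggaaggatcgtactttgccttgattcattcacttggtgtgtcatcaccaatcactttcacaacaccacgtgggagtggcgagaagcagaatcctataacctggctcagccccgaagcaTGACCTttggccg
Plin2: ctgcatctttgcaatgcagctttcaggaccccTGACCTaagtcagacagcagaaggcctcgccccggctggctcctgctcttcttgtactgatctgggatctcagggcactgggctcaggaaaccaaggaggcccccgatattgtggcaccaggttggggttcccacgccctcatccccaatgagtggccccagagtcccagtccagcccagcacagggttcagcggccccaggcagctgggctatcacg
G0s2: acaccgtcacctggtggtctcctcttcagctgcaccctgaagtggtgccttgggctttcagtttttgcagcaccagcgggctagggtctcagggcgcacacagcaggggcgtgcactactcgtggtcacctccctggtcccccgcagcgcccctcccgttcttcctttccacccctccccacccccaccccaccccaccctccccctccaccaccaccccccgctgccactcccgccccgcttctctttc
Acadm: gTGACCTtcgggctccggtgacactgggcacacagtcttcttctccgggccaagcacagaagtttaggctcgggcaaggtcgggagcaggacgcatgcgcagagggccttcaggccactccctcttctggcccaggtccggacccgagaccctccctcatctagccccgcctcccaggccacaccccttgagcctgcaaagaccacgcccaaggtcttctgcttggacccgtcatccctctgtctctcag
Acot4 carries its half-site close to the start, Plin2 and Acadm carry theirs near the far end of the window, and the Fgf21 and G0s2 windows have none.

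Detection and labels were checked before the members were compared. Signals are given on a log2 scale, on which a difference of 1 is 2-fold, and a probe was called detected at a deposited detection p-value under 0.01. Detected probes numbered 11585 to 11688 on the livers and 13019 to 13409 on the MEF arrays. Summed signals of 8 hepatocyte markers were 16.16 to 16.23 in the livers against 8.07 to 9.17 in MEFs. Those of 7 fibroblast markers were 11.57 to 12.19 in livers, where Dcn (11.5 to 12.14) made up most of the sum and Col1a1 was not detected. In MEFs the fibroblast sums were 14.36 in Dnmt2-/-, 13.99 in Nsun2-/- and 12.10 in double knockout cells, against 13.62 in wild type. Nsun2 was not detected in the liver labelled Dnmt2-/- (4.41), nor in the Nsun2-/- (4.10) or double knockout liver (4.19), against 5.35 in the wild-type liver. That probe lies near background, so it does not settle the label, and the array is called the liver labelled Dnmt2-/- below. In MEFs Nsun2 was 5.14 in Dnmt2-/-, not detected in Nsun2-/- (4.33) or double knockout (4.22), and 5.36 in wild type. The Trdmt1 probe was not detected in any liver, nor in Nsun2-/- or wild-type MEFs, but was in Dnmt2-/- (5.09) and double knockout MEFs (4.64). With the deleted part of Trdmt1 unknown here, that probe checks no label. Y-linked Eif2s3y was 6.78 in Dnmt2-/- MEFs, missed detection in the Nsun2-/- and double knockout MEFs, and was 7.85 in wild-type MEFs, so sex-linked expression and Nsun2 genotype cannot be told apart in MEFs. In the livers it was 8.76 to 8.93. X-linked Xist was 5.475 in the liver labelled Dnmt2-/-, 5.21 in Nsun2-/- and 4.85 in the double knockout. It was not detected in the wild-type liver (4.51). In MEFs Xist was 4.58 in Dnmt2-/-, 5.90 in Nsun2-/- and 6.07 in the double knockout, and was not detected in wild type (4.47).

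Livers were first set against MEFs, to see which members these sample types express. Fatty acid oxidation genes were higher in liver almost throughout, most of all the peroxisomal thiolase Acaa1b. The list's 31 tested genes all had a positive liver-minus-MEF difference, and 27 rose and 0 fell in liver by limma with Benjamini-Hochberg adjustment over 10491 genes at 0.05. Over all tested genes 28.6% rose and 38.7% fell. The spread in this fit is how far arrays depart from adding up sample type and genotype, not that between replicate animals or lines. The filter kept genes detected on at least 2 arrays and left out Cd36, Fabp1, Vnn1 and Cpt1a. Of the 31 it kept, 4 (Ppara, Ppargc1a, Acot3 and Bdh1) were detected in livers alone and so had to be higher there. For these, only the least fold that their values allow is given below. Of the 27 members detected in both sample types, 23 rose and 0 fell, against 27.9% and 37% of 8543 such genes. The members' median difference was 1.99, against −0.14 for all genes. For 27 of the 31 every liver lay above every MEF array, which held for 26.6% of all genes. The median and this count include the 4 members detected in livers alone, whose direction was set by the filter. In bulk RNA, fewer cells of a type and less RNA per cell cannot be told apart.

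**Figure D1:**
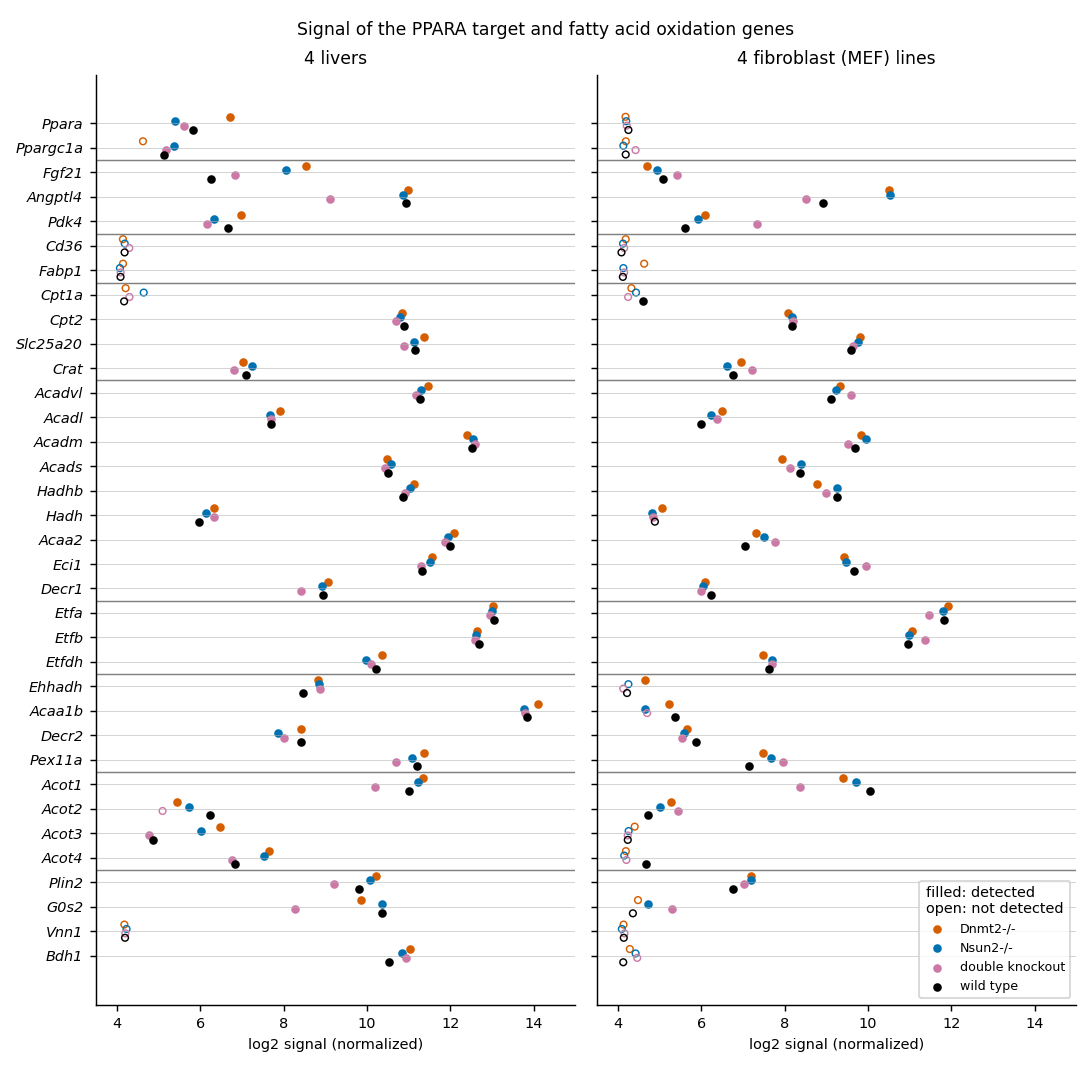
Log2 signal of each member with a named probe on the 4 livers (left panel) and 4 MEF arrays (right panel), 1 point per array, coloured by genotype, with open points where the probe was not detected. Members are grouped by role. Most points lie further right in the liver panel, while Crat and Pdk4 lie at like values in both and Cd36, Fabp1 and Vnn1 were detected on no array.

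The regulators were liver genes in these samples. Ppara, the receptor itself, was 6.71 in the liver labelled Dnmt2-/-, 5.40 in Nsun2-/-, 5.62 in the double knockout and 5.82 in the wild-type liver, and was detected in no MEF array (4.18 to 4.25). Livers were at least 2.81-fold higher on average. Ppargc1a, a coactivator of PPARA and of mitochondrial biogenesis, was not detected in the liver labelled Dnmt2-/- (4.63) and was 5.37 in Nsun2-/-, 5.19 in the double knockout and 5.12 in the wild-type liver. No MEF array detected it, and livers were at least 1.60-fold higher.

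All 4 peroxisomal members rose in liver, and Acaa1b differed most of all members. Acaa1b, a thiolase that cleaves the shortened chain, was 14.10, 13.76, 13.79 and 13.85 in the livers, ordered as labelled Dnmt2-/-, Nsun2-/-, double knockout and wild type. In MEFs it was 5.22, 4.65, 4.70 (not detected) and 5.38 in the same order of genotypes, a mean log2 difference of 8.89 in measured values (limma SE 0.15, adjusted p 1.16e-09). Ehhadh, the bifunctional enzyme of the middle steps, was 8.83, 8.85, 8.87 and 8.47 in the livers and was detected in 1 MEF array, Dnmt2-/- (4.64). Its log2 difference of 4.45 rests on measured values that were not detected in the other 3 MEF arrays. The liver values of both genes lay far above those of every MEF array. Pex11a, which divides peroxisomes, differed by 3.53 and Decr2, which reduces double bonds of unsaturated chains, by 2.52.

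The mitochondrial spiral was higher in liver at every step measured. All 9 enzymes with a probe rose, by 1.30 (Hadh, a hydroxyacyl-CoA dehydrogenase) to 4.56 (Acaa2, the last-step thiolase). Acaa2 was 11.87 to 12.08 in the livers against 7.04 to 7.78 in MEFs, a 23.7-fold difference, and its other 3 probes gave 4.32 to 4.56. Medium-chain acyl-CoA dehydrogenase Acadm differed by 2.77, short-chain Acads by 2.30, very-long-chain Acadvl by 1.99 and long-chain Acadl by 1.48. Hadhb, the trifunctional protein's beta subunit, differed by 1.92, and the helpers for unsaturated chains, Eci1 and Decr1, by 1.79 and 2.75. The electron transfer genes Etfa, Etfb and Etfdh, which pass electrons from these dehydrogenases to the respiratory chain, differed by 1.26, 1.54 and 2.54. A dimmer Etfdh probe, detected in livers alone, gave 1.08 in measured values.

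Among the carnitine shuttle genes tested, Cpt2 and Slc25a20 rose in liver, while Crat did not pass the limma test. Cpt2, the inner-membrane carnitine transferase, differed by 2.65 and the carrier Slc25a20 by 1.43. Crat, which makes short-chain carnitine esters, was 6.80 to 7.25 in livers against 6.61 to 7.21 in MEFs (difference 0.16, limma adjusted p 0.445), and scaling arrays to a common median turned its difference to −0.68 (limma adjusted p 0.00793). Under that scaling the median of all genes was −0.51 in place of −0.14, and 2145 genes rose and 5423 fell in liver in place of 3005 and 4055. Cpt1a, the rate-limiting outer-membrane transferase, was detected only in wild-type MEFs (4.61). The lipid carriers Cd36 and Fabp1 and the pantetheinase Vnn1 were detected on none of the 8 arrays, at 4.07 to 4.63. Each of these 4 genes had 1 probe, so their signals describe those probes alone.

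The acyl-CoA thioesterases, which free fatty acids from CoA, differed in level between liver and MEFs by unlike amounts. Acot4, the peroxisomal enzyme for dicarboxylic chains, differed by 2.89 in measured values, with 1 of 4 MEF arrays detected, and cytosolic Acot1 by 1.56. Peroxisomal Acot3 was detected in no MEF array, so livers were at least 2.19-fold higher. The direction of Acot3 was set by the filter, so its limma call says nothing on direction. That call was lost without wild-type MEFs or without the Nsun2-/- liver. Mitochondrial Acot2 did not pass (difference 0.51, limma adjusted p 0.131).

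Bdh1, G0s2 and Plin2 were also higher in liver. Bdh1, the mitochondrial enzyme that makes beta-hydroxybutyrate, was 11.04, 10.85, 10.94 and 10.52 in the livers, ordered as for Acaa1b, and was detected in no MEF array. Livers were at least 85.8-fold higher by this probe. A dimmer probe, also detected in livers alone, gave a smaller gap, at 6.47 to 7.52 in livers against 4.09 to 4.20 in MEFs. G0s2, which inhibits the triglyceride lipase ATGL, differed by 4.998 in measured values, with 2 of 4 MEF arrays detected, and Plin2, the coat protein of lipid droplets, by 2.79. Of the secreted factors and the fuel switch, Fgf21 differed by 2.39. Angptl4, which inhibits lipoprotein lipase, and Pdk4, a kinase that inhibits pyruvate dehydrogenase, did not pass the limma test (0.87, adjusted p 0.195, and 0.29, adjusted p 0.463). Without the double knockout MEF array the differences of Pdk4 (0.69) and Acot2 (0.73) passed, with limma adjusted p 0.0236 and 0.0436.

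Livers were then compared with each other, to see which members differ with loss of Dnmt2, Nsun2 or both. The core enzymes of beta-oxidation varied little. The members that spread most were Fgf21, G0s2, Angptl4, Acot3, Ppara, Acot1, Acot2 and Plin2. Fgf21 and Acot3 were at least 2-fold higher in both livers labelled as single knockouts, and Angptl4, G0s2 and Acot2 at least 2-fold lower in the double knockout liver. Each of these rests on 1 array a genotype, so no difference has a replicate check and no p-value is given. The comparisons share the wild-type liver.

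**Figure D2:**
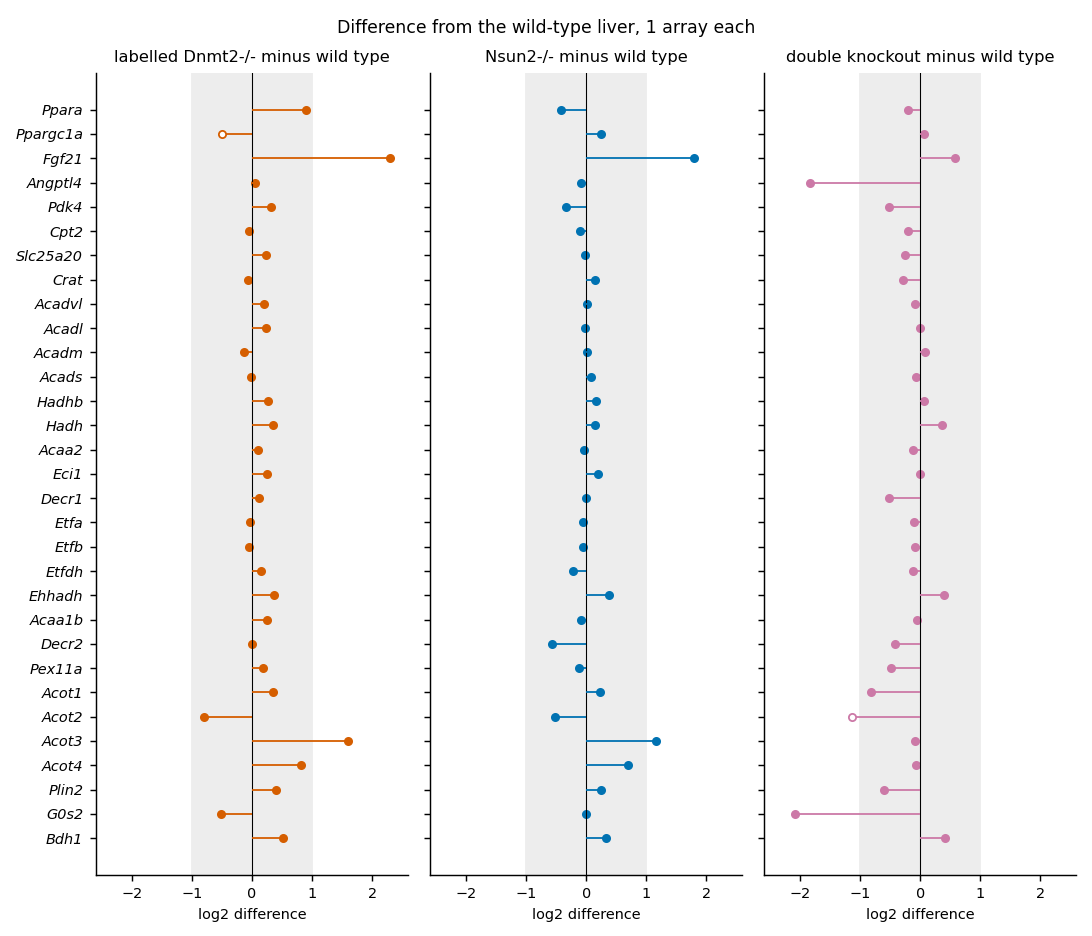
Log2 difference of each knockout liver from the wild-type liver for the 31 members detected in a liver, 1 array each, with the span under 2-fold shaded and open points, at the measured difference, where 1 side was not detected. Fgf21 and Acot3 pass the shading to the right in the first 2 panels, and Angptl4, G0s2 and Acot2 pass it to the left in the double knockout panel.

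In the liver labelled Dnmt2-/-, 2 of 31 members were at least 2-fold higher and 0 lower, against 1.1% and 1.26% of 8943 genes. In the Nsun2-/- liver it was also 2 higher and 0 lower, against 1.41% and 1.49%. In the double knockout liver 0 were higher and 3 lower, against 1.6% and 1.51%. At these counts 1 member more or less is 3.23% of the list. The members' median difference from wild type was 0.19 in the liver labelled Dnmt2-/-, −0.00 in the Nsun2-/- liver and −0.10 in the double knockout liver, where all genes had 0.00, 0.00 and 0.01. Members above 0 numbered 22, 15 and 7 of 31 in the same order. With the median of all genes near 0, about as many of all genes lay above 0 as below it.

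Fgf21, the fasting hormone that liver secretes, was 8.55 in the liver labelled Dnmt2-/-, 8.06 in Nsun2-/- and 6.84 in the double knockout, against 6.25 in the wild-type liver. Both livers labelled as single knockouts lay above the double knockout and wild-type livers. The differences from wild type were 4.91-fold and 3.49-fold, against 1.5-fold in the double knockout. The double knockout's difference was −3.51 on the log2 scale relative to the sum of those of the single knockouts.

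Acot3 was likewise higher in both livers labelled as single knockouts, at 6.46 in the liver labelled Dnmt2-/-, 6.02 in Nsun2-/- and 4.78 in the double knockout, against 4.86 in wild type. These were 3.03-fold and 2.24-fold above wild type, while the double knockout was level with wild type. Without background correction or in the authors' deposited values these log2 differences were 0.64 and 0.57 for the liver labelled Dnmt2-/-, and 0.43 and 0.35 for Nsun2-/-, all short of 2-fold. For the Nsun2-/- liver, median scaling (0.87) and quantile normalization within livers (0.88) also fell short. Acot4, its neighbour on chromosome 12, was 7.65 in the liver labelled Dnmt2-/-, 7.53 in Nsun2-/- and 6.76 in the double knockout, against 6.83 in wild type, or 1.77-fold and 1.62-fold higher in the livers labelled as single knockouts. Acot1, Acot2, Acot3 and Acot4 are close paralogs that lie side by side, and whether a probe of 1 also binds transcripts of another was not tested.

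Ppara itself was highest in the liver labelled Dnmt2-/- (1.85-fold over wild type) and lowest in Nsun2-/- (−0.42 on the log2 scale). Ppargc1a was not detected in the liver where Ppara was highest.

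The members at least 2-fold lower in the double knockout liver were Angptl4, G0s2 and Acot2. Angptl4 was 10.997 in the liver labelled Dnmt2-/-, 10.86 in Nsun2-/- and 9.11 in the double knockout, against 10.95 in wild type. The double knockout lay 3.56-fold below wild type, while the other knockouts lay close to it. G0s2 was 9.85 in the liver labelled Dnmt2-/-, 10.36 in Nsun2-/- and 8.27 in the double knockout, against 10.36 in wild type, so the double knockout was 4.25-fold lower. Plin2 was 10.21 in the liver labelled Dnmt2-/-, 10.07 in Nsun2-/- and 9.21 in the double knockout, against 9.82 in wild type. For these 3 genes the double knockout was the lowest liver, below all others by more than those differ among themselves.

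Acot1 was 11.34 in the liver labelled Dnmt2-/-, 11.24 in Nsun2-/- and 10.18 in the double knockout, against 11.001 in wild type, so it was also lowest in the double knockout (1.76-fold below wild type). Its other probe gave −1.06, in the same direction. Acot2 was 5.43 in the liver labelled Dnmt2-/-, 5.72 in Nsun2-/- and not detected in the double knockout (5.10), against 6.24 in wild type, so the double knockout was at least 2.21-fold lower. Its log2 difference was −0.37 to −0.90 under 5 alternatives, short of 2-fold in each, and its other 2 probes were detected in no liver. Pex11a was 10.71 in the double knockout, against 11.20 in wild type, and its other 2 probes gave −0.41 and −0.43.

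Markers of other cell types were read beside these genes, since adipose tissue also expresses Angptl4, G0s2 and Plin2. Summed signals of 5 adipocyte markers were 6.65 in the liver labelled Dnmt2-/-, 6.61 in Nsun2-/- and 6.97 in the double knockout, against 6.77 in wild type. Of the 5, Lep alone was detected in a liver (double knockout and wild type), so these sums lie near background. Plin1, Retn and Cidec were detected on no array. Those of 5 macrophage markers were 10.61, 10.75 and 11.03 in the knockouts in the same order, against 10.65 in wild type. The part of both lists in the result was not tested.

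**Figure D3:**
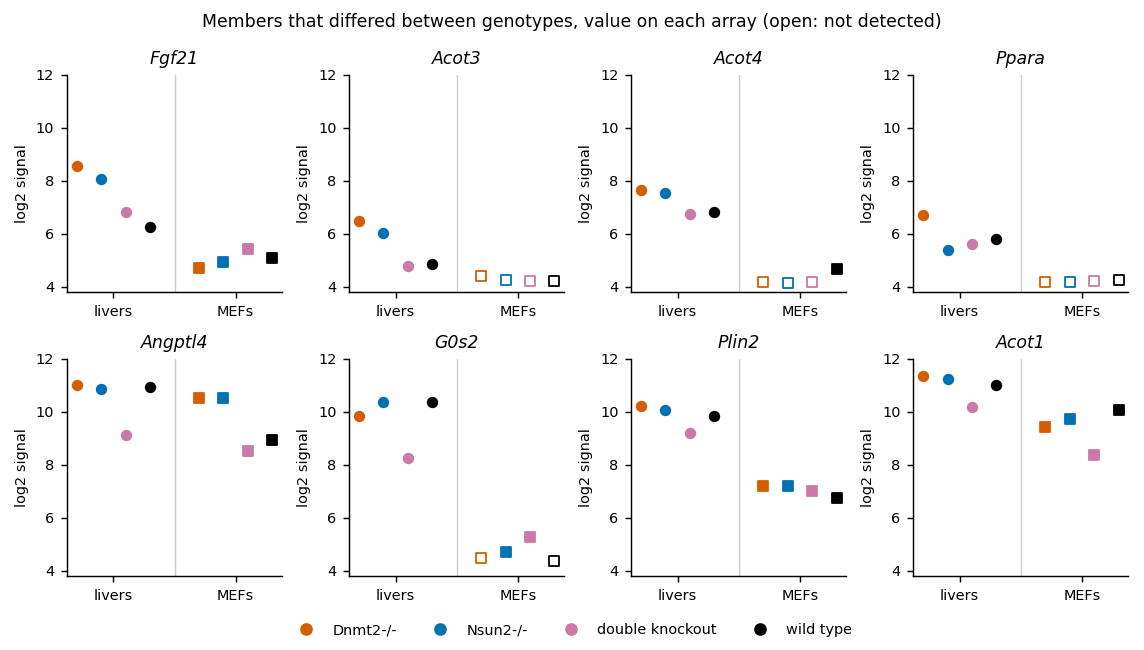
Log2 signal of 8 members on each array, livers as circles on the left and MEFs as squares on the right of each panel, coloured by genotype, open where not detected. Fgf21, Acot3 and Acot4 are high in both livers labelled as single knockouts, and Angptl4, G0s2, Plin2 and Acot1 are lowest in the double knockout liver.

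Spread over the 4 livers differed between the roles. The range from lowest to highest liver had a median of 0.10 for the electron transfer genes, 0.25 for mitochondrial beta-oxidation, 0.45 for the carnitine shuttle and 0.48 for the peroxisomal genes. It was 1.15 for the thioesterases and 1.88 for the hormones and fuel switch. Over the 29 members detected in every liver the median range was 0.45, against 0.36 for 7038 genes. Etfb varied by 0.09, Etfa by 0.10 and Acads by 0.15. A range of at least 2-fold was seen in 8 of 31 members, against 11.8% of 9756 genes. These were Fgf21, G0s2, Angptl4, Acot3, Ppara, Acot1, Acot2 and Plin2.

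**Figure D4:**
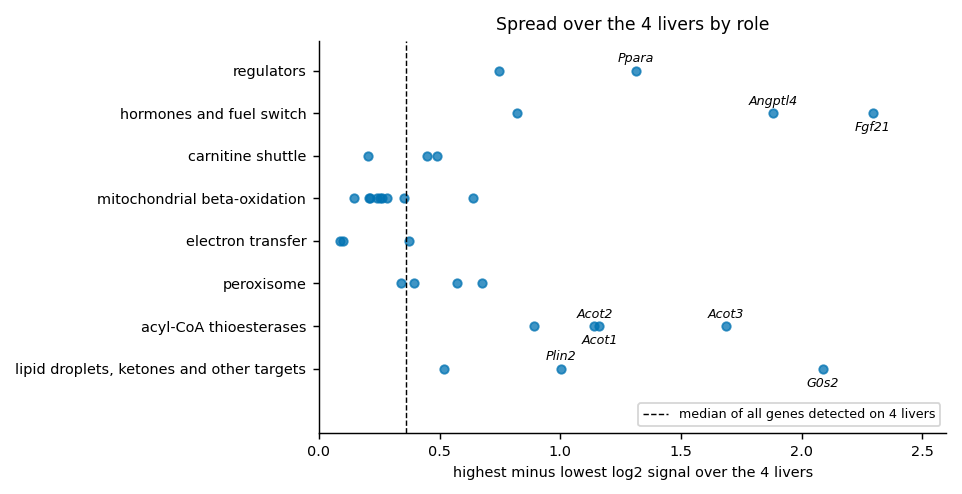
Highest minus lowest log2 signal over the 4 livers for the 31 members detected in a liver, by role, 1 point per gene, with the median of all genes detected on 4 livers (0.36) as a dashed line. Genes that range over at least 2-fold are named, and all lie outside the mitochondrial enzymes apart from the thioesterase Acot2.

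The order of the livers leaned one way. The liver labelled Dnmt2-/- was the highest of the 4 for 21 of 31 members, against 23.8% of 9756 genes, and the double knockout was the lowest for 19 of 31, against 25.7%. Most of these differences were small, as the medians above show. These counts were chosen after their values were seen. Over 6 alternatives they were 20 to 26 and 18 to 20, and with median scaling the share of all genes highest in the liver labelled Dnmt2-/- was 36.9%.

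In MEFs the members were compared in the same way. Angptl4 alone was at least 2-fold from wild type in both sample types, and in different genotypes and opposite directions. Angptl4 was higher in both single knockouts, Pdk4 was higher in the double knockout, and Acot1 was lower there. The mitochondrial enzymes differed little. In Dnmt2-/- MEFs 1 of 27 detected members was at least 2-fold higher than in wild type and 0 lower, against 2.73% and 0.893% of 9742 genes. In Nsun2-/- MEFs it was also 1 higher and 0 lower, against 1.94% and 0.682%. In double knockout MEFs 1 was higher and 1 lower, against 4% and 2.82%. Each of these comparisons had 1 array a side, and they share the wild-type array. Double knockout MEFs also had the lowest fibroblast marker sum, with Thy1 at 7.22, against 11.59 in wild type, and Dcn at 9.55, against 12.06. The other detected markers differed less. Col3a1 was 6.95, against 8.42, Col1a1 10.95, against 11.76, Pdgfrb 7.55, against 7.76, and Col1a2 10.22, against 10.21. The part of these markers in the double knockout MEF values was not tested.

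Angptl4 was 10.50 in Dnmt2-/-, 10.53 in Nsun2-/- and 8.50 in double knockout MEFs, against 8.92 in wild type. The single knockouts were 3.01-fold and 3.07-fold higher. The double knockout was lower than wild type by less than 2-fold (−0.41 on the log2 scale). Relative to the Dnmt2-/- and Nsun2-/- samples the double knockout differed by −2.00 and −2.03 in MEFs and by −1.88 and −1.75 in livers. Angptl4 was therefore lowest in the double knockout in both sample types, while wild type was among the high livers and among the low MEFs.

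Acot1 was 9.41 in Dnmt2-/-, 9.72 in Nsun2-/- and 8.37 in double knockout MEFs, against 10.05 in wild type. The double knockout was 3.20-fold lower, and the other probe gave −0.81. As in liver, the double knockout had the lowest signal. Pdk4 was 6.09 in Dnmt2-/-, 5.91 in Nsun2-/- and 7.33 in double knockout MEFs, against 5.62 in wild type. The double knockout was 3.28-fold higher, a difference that came to 0.91 on the log2 scale without background correction and 0.88 in the authors' deposited values, short of 2-fold. In livers Pdk4 was lowest in the double knockout (6.15), against 6.67 in wild type.

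**Figure D5:**
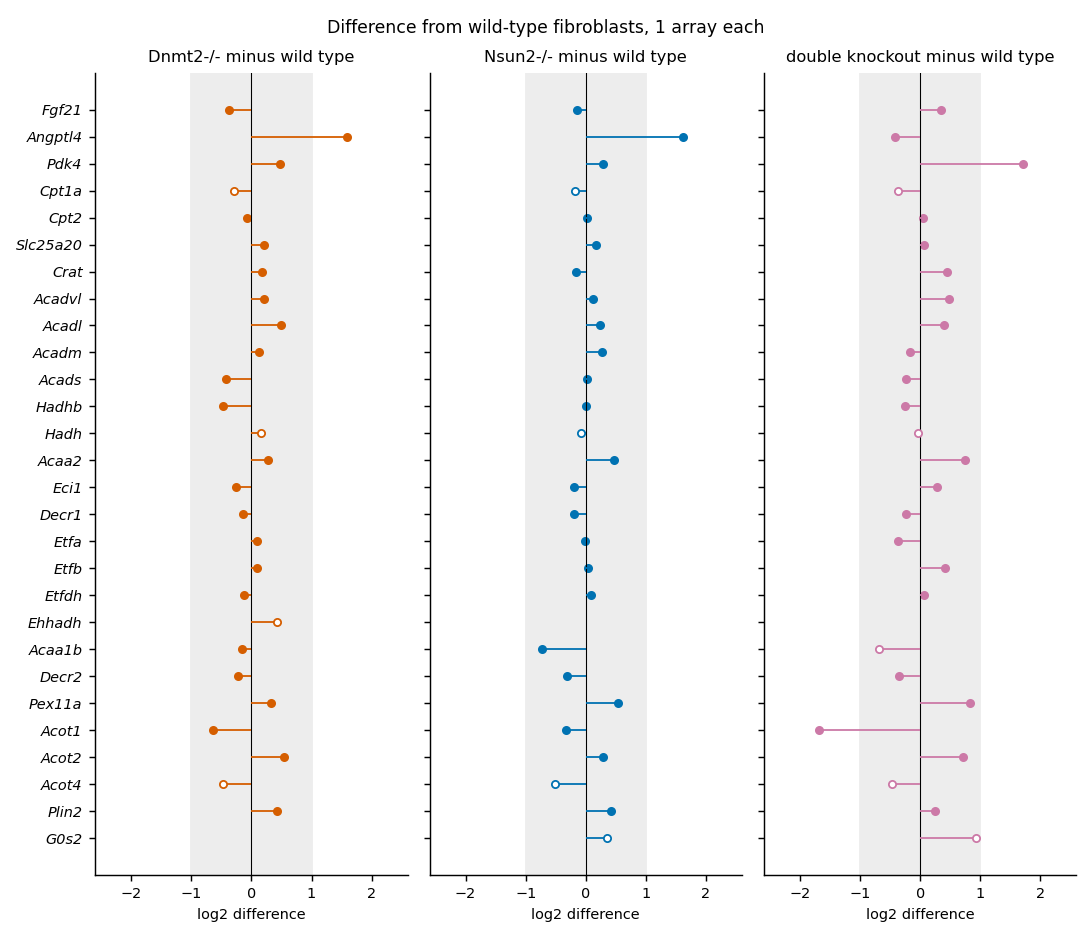
Log2 difference of each knockout MEF array from wild-type MEFs for the members detected in MEFs, 1 array each, with the span under 2-fold shaded and open points, at the measured difference, where 1 side was not detected. Angptl4 passes the shading to the right in both single knockout panels, and Pdk4 and Acot1 pass it in opposite directions in the double knockout panel.

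Smaller shifts in MEFs were scattered over the roles. In double knockout MEFs Pex11a was 1.77-fold higher, Acaa2 1.67-fold, Acot2 1.65-fold and G0s2, not detected in wild type, at least 1.85-fold. G0s2 passed 2-fold with median scaling (1.13 on the log2 scale) and with quantile normalization within MEFs (1.16). Its direction there was opposite to that in the double knockout liver. Fgf21 was 4.70 in Dnmt2-/-, 4.93 in Nsun2-/- and 5.42 in double knockout MEFs, against 5.07 in wild type, with no single knockout above wild type. The members' medians from wild type were 0.09, 0.02 and 0.06, against −0.04, −0.04 and −0.03 for all genes. With median scaling the medians for Dnmt2-/- and Nsun2-/- were −0.03 and −0.10, while those of all genes were −0.07 and −0.13.

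Loss of Dnmt2 and loss of Nsun2 were tested with limma over all 8 arrays, where the spread is the departure of arrays from an additive layout, not that between replicate animals. No member passed. In each of 8 tests (each loss over both sample types, within liver, within MEFs, and liver minus MEF) 0 of 31 members and 0% of 10491 genes passed at an adjusted p of 0.05. At an unadjusted p under 0.05, Dnmt2 loss had 1 member over both types (all genes 3.99%), 2 in liver (4.37%), 3 in MEFs (6.45%) and 2 for the difference between types (5.51%). Nsun2 loss had 2 (4.21%), 2 (6.31%), 3 (4.91%) and 3 (5.23%) in that order. In liver the members with the lowest unadjusted p were Acot2 (−0.72, SE 0.17, limma adjusted p 0.971) and G0s2 (−1.30, SE 0.40, limma adjusted p 0.971) for Dnmt2 loss. For Nsun2 loss they were Ppara (−0.76, SE 0.22, limma adjusted p 0.776) and Decr2 (−0.50, SE 0.18, limma adjusted p 0.782). In MEFs Pdk4 was at 0.94 for Dnmt2 loss (SE 0.29, limma adjusted p 0.671) and 0.77 for Nsun2 loss (limma adjusted p 0.996), for which Acaa1b had the lowest unadjusted p (−0.63, SE 0.18, limma adjusted p 0.996). These fits take the effects of both losses as additive, and Fgf21, Acot3 and, in MEFs, Angptl4 departed from that by −3.51, −2.85 and −3.62.

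Other genes of the pathway were read from lists taken alongside the members. Of 34 further fatty acid oxidation genes tested, 26 rose and 3 fell in liver by limma. Over all 10491 tested genes 28.6% rose and 38.7% fell, which also holds beside the counts that follow here. Slc27a5 and Slc27a2, which activate fatty acids and bile acids, rose by 8.68 and 7.48, Acox2, a peroxisomal oxidase, by 6.93 and the sterol carrier Scp2 by 4.44. Cpt1c (−1.45), Slc27a1 (−1.35) and Slc27a4 (−0.50), relatives best known from other tissues, fell. All 13 genes tested from a list of peroxisome genes rose. Its Pex genes ran from Pex19 (0.84) and Pex14 (0.87) to Pex16 (3.74), and the peroxisomal enzyme catalase (Cat) rose by 5.43. Of 14 partners and coregulators of PPARA, 11 rose, led by Hnf4a (5.88) and Creb3l3 (5.72), and 3 fell, Ep300 (−1.03), Med1 (−0.40) and Rxrb (−0.33). The RXR partner Rxra rose by 1.33. Oxct1, which uses ketone bodies outside the liver, fell by 4.85 on the log2 scale.

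Between the livers, 2 of the genes on these lists differed at least 2-fold from wild type. They were 2 of 75 compared in the liver labelled Dnmt2-/- (all genes 2.36%), 1 of 77 in Nsun2-/- (2.89%) and 0 of 75 in the double knockout (3.1%). Abcd3, the peroxisomal membrane transporter of fatty acids, was 11.97 in the liver labelled Dnmt2-/-, 11.99 in Nsun2-/- and 10.81 in the double knockout, against 10.96 in wild type. It was 2.01-fold and 2.03-fold higher in the livers labelled as single knockouts. The lipase Lipe was 5.66 in the liver labelled Dnmt2-/- and not detected in wild type, at least 2.25-fold higher.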

How the data were processed

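Total RNA was extracted with Trizol and hybridized as biotin-labelled cRNA, per the labels' protocols. One deposited table gives, per the file headers, a probe intensity that is not normalized and a detection p-value for each array. A further deposited table holds the authors' processed intensity values, with a normalization "not given in the sources used here". These are linear and not centred by gene, with medians of 103.7 to 104.2 in MEFs and 107.2 to 107.9 in livers, and rank correlations of at least 0.999 with the table that is not normalized. How these medians were brought together stays unknown.

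In R 4.3.3 with limma 3.58.1, deposited intensities were background-corrected by normexp from the detection p-values with an offset of 16, taken to log2 and quantile-normalized across the 8 arrays. Gene names came from the platform annotation: 23898 probes had 1 symbol, 0 had several and 1710 had none. Of these, 23882 had an identifier in RefSeq GRCm38.p6 and 0 symbols were updated. The brightest probe stood for a gene. An undetected value was set to the higher of itself and the lowest detected signal, and the fold is then a lower bound ("at least"). For liver against MEFs this was done, per array before averaging, only where no array of a sample type detected the gene, and elsewhere undetected values enter as measured. Pairs used genes detected on at least 1 of both arrays. Tests used limma (lmFit, eBayes, Benjamini-Hochberg at 0.05) of 10491 genes, those with detection on 2 or more arrays, with 4 residual degrees of freedom for both types together and 2 within types, where undetected values enter as measured. The code was tested on simulated data. The number of arrays limits the precision.

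All members are named, and other genes by their size of change, up to 8 a list. Members and lists were chosen with earlier results of these data known. Alternatives were no background correction, median scaling, quantile normalization within a sample type, the authors' values, the mean of all probes, other detection filters, a 1.5-fold threshold and leaving out each array.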

Additional observations from a re-analysis of the deposited data

How the results depend on the processing

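The count of members that passed between liver and MEFs was 27 or 28 under 5 alternatives, and 26 to 29 with 1 array left out. Crat was the exception in direction among these (−0.68 with median scaling, where it fell). Quantile normalization within a sample type was left out of these counts, as it sets no common scale for livers and MEFs. It gave 27 members higher and 1 lower, with 1668 higher and 6342 lower of 10491 genes. In the genotype fits no alternative and no array left out gave a call among the members (0 in each). Counts of members at least 2-fold apart were small and moved easily. In the double knockout liver the count was 2 in place of 3 with no background correction, median scaling or quantile normalization within livers. It was also 2 with the authors' values, the mean of all probes or the other detection filter. With no background correction the counts were 1 in the liver labelled Dnmt2-/-, 1 in the Nsun2-/- liver and 1 in double knockout MEFs. The authors' deposited values again gave 1, 1 and 1. In the Nsun2-/- liver median scaling and quantile normalization within livers also gave 1. At a 1.5-fold threshold they were 5 of 31 in the liver labelled Dnmt2-/- (all genes 12.1%), 3 in the Nsun2-/- liver (14%), 6 in the double knockout liver (15.4%), 2 of 27 in Dnmt2-/- MEFs (12.5%), 2 in Nsun2-/- MEFs (10.5%) and 7 in double knockout MEFs (20.1%). Over all genes the counts of 2-fold differences in the liver labelled Dnmt2-/- were 98 higher and 113 lower, and 14 and 18 with no background correction, and other comparisons shrank likewise. The cause of these changes was not tested, though without background correction every signal holds its background and differences shrink by construction. The alternatives for the order of the livers were chosen after seeing the data.

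No paired analysis was possible because every group has 1 array, labelled replicate 1, so a replicate block has no degrees of freedom. A slide block was not run, since the file headers name no chip. With 1 array a group, differences between genotypes cannot be told apart from those between individual mice or cell lines. Probes near background (Ppargc1a, Acot2 and Acot3) limit what can be read from their differences. Ppara, with 1 probe at 5.40 to 6.71 in the livers, lay only a little above Acot2 and Acot3.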

Other observations

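Lipid droplet genes outside the member list were also mostly liver genes. Of 11 tested, 8 rose in liver by limma, led by Cideb (6.56), the monoglyceride lipase Mgll (5.44) and Plin5 (4.99). Of the others 1 fell (Plin3, −0.48), and Dgat1 (0.09) and Lipe (0.41) did not pass. Over all tested genes 28.6% rose and 38.7% fell. The receptor Pparg, a relative of Ppara best known from fat cells, was 7.42 to 7.96 in the livers against 4.16 to 6.14 in MEFs.

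In double knockout MEFs 4 of 67 genes compared on the neighbouring lists differed at least 2-fold from wild type, against 6.82% of 9683 genes, and all 4 were chosen after their values were seen. Bdh2, a ketone body dehydrogenase of the cytosol, was 7.39 in double knockout MEFs, with 9.19 in Dnmt2-/- and 9.61 in Nsun2-/-, against 9.85 in wild type, 5.50-fold lower. Ppargc1b, a coactivator related to Ppargc1a, was 2.75-fold higher at 6.66, against 5.20. Pparg was 2.20-fold higher at 6.14, against 4.998, and the lipase ATGL (Pnpla2) 2.17-fold higher at 9.20, against 8.08. G0s2, the inhibitor of that lipase, was 5.29 in double knockout MEFs and not detected in wild type. These arrays have no replicate, and the double knockout MEFs had the lowest fibroblast marker sum (12.10, against 13.62 in wild type), whose part was not tested.

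Bdh1 had a second probe with a wider spread over the livers than the first. It was 7.52 in the liver labelled Dnmt2-/-, 6.86 in Nsun2-/- and 6.56 in the double knockout, against 6.47 in wild type, a difference of 1.05 for the liver labelled Dnmt2-/- where the brighter probe gave 0.52. The second probe of Decr2 gave 0.05 for the liver labelled Dnmt2-/-, −0.46 for Nsun2-/- and −0.67 for the double knockout, against 0.00, −0.57 and −0.42 by the brighter probe.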
